A study of Mus musculus with 10 samples.

Results

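The 8 genes described here encode S100 calcium-binding proteins: S100a1, S100a4, S100a6, S100a8, S100a9, S100a10, S100a11 and S100a13. They were taken by name from the 32285 genes counted, and all 8 were found. Their messenger RNA was counted in single phagocytes of female C57BL/6Rj mice. LysoDCs, lysozyme-expressing phagocytes of Peyer's patches (the lymphoid tissue of the small intestine), came from untreated animals and were sorted as follicular, immature, intermediate and mature cells. Immature and maturing cDC2s, the conventional type 2 dendritic cells of the same patches, were sorted beside them. DN blood cells (high for CD115, negative for Ly6C and CD43), CD43+ monocytes and Ly6C+ monocytes came from the blood of other mice, collected 9 days after clodronate-loaded liposomes, given to raise the number of DN cells. Patches were digested with collagenase II and DNase I and their CD11c+ cells enriched on magnetic beads before the sort; no such steps are described for blood. Tissue, treatment and digestion therefore cannot be told apart in any comparison of LysoDCs with blood cells.

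Dataset 1 was 1 library with 9 hashtags (antibodies with DNA barcodes that mark the sorted population), made from the patches of 30 mice and the blood of 20. Dataset 2 had 4 libraries and 7 hashtags, from 20 and 18 mice. Its LysoDC hashtags are not assigned to subsets, its CCR2+ and CCR2- DN cells share a hashtag, and its blood populations were in different libraries, so that population and library cannot be told apart there. Tests were made for total LysoDCs, DN blood cells, CD43+ monocytes and Ly6C+ monocytes, each with n = 2 pools of mice (1 per dataset). Levels are counts per 1000000 UMIs (CPM), where a UMI is a counted molecule. In dataset 1, 2886 LysoDCs were used (644 follicular, 708 immature, 1065 intermediate and 469 mature), with 1009 immature and 262 maturing cDC2s, 2118 DN blood cells, 684 CD43+ monocytes and 919 Ly6C+ monocytes. In dataset 2 the numbers were 681 LysoDCs, 4971 DN blood cells, 952 CD43+ monocytes and 866 Ly6C+ monocytes. The LysoDC number of dataset 2 depends on how hashtags were called. Another call, with 1 added to each hashtag and described further on, gave 2919 LysoDCs there. It gave 5461 DN blood cells, 1040 CD43+ monocytes and 904 Ly6C+ monocytes.

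S100 proteins are small dimers built from EF-hands, the helix-loop-helix motif that binds calcium. On calcium binding most of them expose a surface that grips target proteins. S100A4 binds the heavy chain of nonmuscle myosin, S100A11 binds annexin A1, and S100A10, which no longer binds calcium, holds annexin A2 at the plasma membrane. S100A8 and S100A9 form calprotectin, a metal-sequestering antimicrobial protein abundant in neutrophils and in inflammatory monocytes, and in mice S100a8 and S100a9 transcripts are among the most abundant of neutrophils.

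All 8 genes lie on mouse chromosome 3 (GENCODE vM21 on GRCm38), in 2 blocks. The first holds S100a1 (90511034 to 90514392, minus strand), S100a13 (90514435 to 90524581, plus), S100a4 (90603771 to 90606045, plus), S100a6 (90612882 to 90624181, plus), S100a8 (90668978 to 90670035, plus) and S100a9 (90692632 to 90695721, minus). S100a1 and S100a13 run in opposite directions with 42 bases between them. The second block, 2824766 bases further on, holds S100a11 (93520488 to 93526287, plus) and S100a10 (93555080 to 93564643, plus). A processed pseudogene, S100a11-ps on chromosome 12 (73961142 to 73961447), has no row in the matrices. S100a11 counts are uncertain to the extent that reads match both copies. Of the 8 members 7 matched an upstream window of RefSeq (GRCm38.p6). S100a4, S100a11 and S100a6 are shown, the first pair because both were lower in LysoDCs than in each blood population and the third as a member that was not. Each line gives 220 bases of the plus strand, read 5′ to 3′ and ending 30 bases before the RefSeq start, with 0 annotated exons in it. Capitals mark matches to 6 motifs searched on both strands. TATAAA stood for the TATA box, CCAAT for the box of that name and GGGCGG for the GC box. TGANTCA was used as the AP-1 motif, GAGGAA as a PU.1-type ETS motif and TTGCNNAA as the C/EBP motif. No match overlaps another in the lines shown.
S100a4, chr3:90603520-90603739: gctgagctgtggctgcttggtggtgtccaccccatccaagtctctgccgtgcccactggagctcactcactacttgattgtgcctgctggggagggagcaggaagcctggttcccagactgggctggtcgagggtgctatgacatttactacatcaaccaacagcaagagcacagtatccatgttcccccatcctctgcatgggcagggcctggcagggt
S100a11, chr3:93520246-93520465: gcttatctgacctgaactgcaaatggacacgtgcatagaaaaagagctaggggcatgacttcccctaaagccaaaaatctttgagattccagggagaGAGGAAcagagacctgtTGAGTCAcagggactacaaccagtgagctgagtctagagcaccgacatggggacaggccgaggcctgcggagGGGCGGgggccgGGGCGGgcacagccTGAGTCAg
S100a6, chr3:90612644-90612863: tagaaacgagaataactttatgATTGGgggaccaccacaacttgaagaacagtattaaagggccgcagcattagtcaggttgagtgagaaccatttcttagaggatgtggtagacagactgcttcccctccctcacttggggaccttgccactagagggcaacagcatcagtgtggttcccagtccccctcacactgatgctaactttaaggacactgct

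The S100a11 window held 2 AP-1 matches, from -136 to -130 and from -38 to -32 relative to the start. It also held 2 GC boxes and 1 PU.1-type match. The S100a4 window held 0 matches of the 6 motifs, and the S100a6 window 1 CCAAT box, read on the other strand as ATTGG. Over 27025 RefSeq windows of the same length, 6.24% held the AP-1 motif, 28.5% the GC box, 20.4% the PU.1-type motif, 31.6% the CCAAT box, 10.3% the TATA box and 8.799% the C/EBP motif. A match is a description of the letters and not of a bound site.

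LysoDCs, CD43+ monocytes and Ly6C+ monocytes carried their defining transcripts, but the cDC2 list did not set the cDC2 gates apart. The 6 genes of that list summed to 416 and 460 CPM in immature and maturing cDC2s. In LysoDC gates they summed to 356 to 444 CPM, and in DN blood cells to 1220 and 1826 CPM. The 7 LysoDC markers summed to between 58092 and 79023 CPM in the LysoDC gates of both datasets, against 4570 to 45283 CPM in blood populations, where lysozyme transcripts of Ly6C+ monocytes reached the upper value. Markers of other cell types were present in places: erythroid genes summed to 225 CPM in the DN blood cells of dataset 1 and 270 CPM (269.6) in the CD43+ monocytes of dataset 2, and B cell genes to between 189 and 282 CPM in LysoDC gates. Their part in the levels of the 8 genes was not tested. Depth per tested sum ran from 2483174 to 38177761 UMIs, and median depth per cell from 2312 to 14346 UMIs. The cell barcodes of the 2 datasets have 37 strings in common.

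LysoDCs were lower in S100a4, S100a10 and S100a11 and higher in S100a1 than all 3 blood populations, while their S100a6 and S100a13 did not pass the test against Ly6C+ monocytes. CD43+ monocytes had the lowest S100a1 and S100a6 of the 4 tested populations. Together the 8 genes made up 0.324% and 0.342% of all UMIs in LysoDCs (dataset 1, dataset 2). In DN blood cells they made up 0.508% and 0.611%, in CD43+ monocytes 0.243% and 0.299%, and in Ly6C+ monocytes 0.711% and 0.942%. The share was 0.750% in immature and 0.605% in maturing cDC2s of dataset 1.

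**Figure D1:**
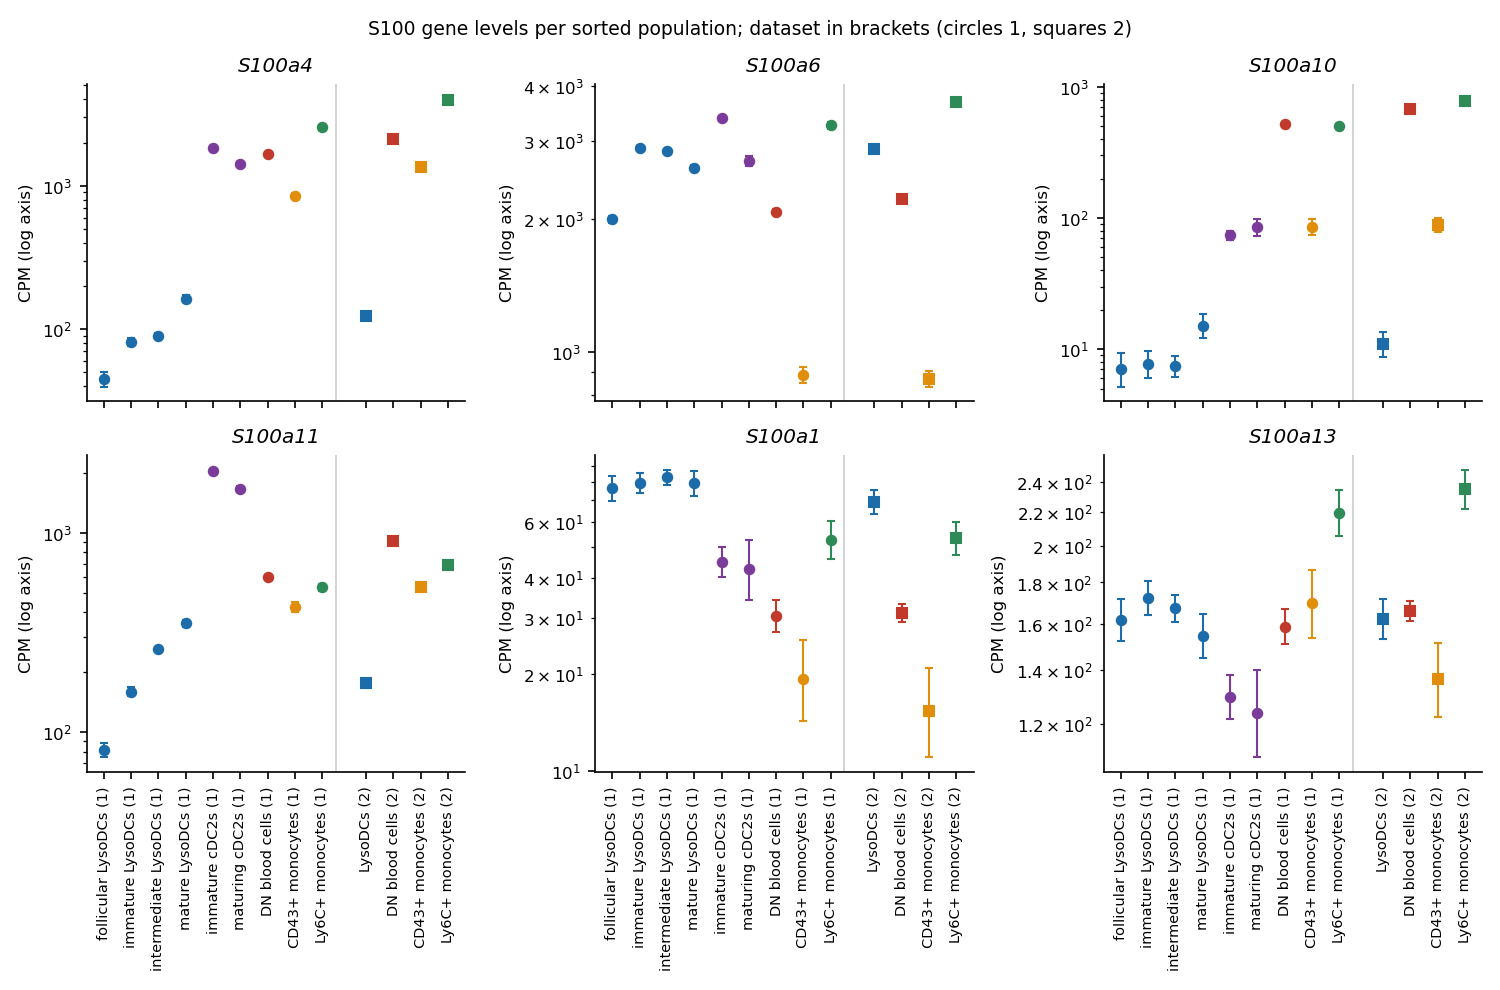
Level of 6 S100 genes (CPM, log axis) in each sorted population, dataset 1 as circles on the left of each panel and dataset 2 as squares on the right; bars are exact 95% Poisson intervals, which cover counting error only. LysoDCs lie below every other population for S100a4 and S100a10, and above every blood population for S100a1.

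The plot of levels by population shows S100a4 and S100a10 spread over more than an order of magnitude, with LysoDCs at the bottom, and S100a13 in a narrow band. In dataset 1 the highest population over the lowest was 73.8-fold for S100a10, 57.05-fold for S100a4, 24.99-fold for S100a11, 4.28-fold for S100a1, 3.80-fold for S100a6 and 1.77-fold for S100a13. In dataset 2, over 4 populations, the same ratio was 71.9, 32.1, 5.17, 4.501, 4.23 and 1.72.

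Against Ly6C+ monocytes, 1 member was higher in LysoDCs (S100a1) and 3 were lower (S100a4, S100a10 and S100a11), at a Benjamini-Hochberg adjusted p under 0.05 in edgeR's quasi-likelihood test over 11474 genes. Of all genes tested, 51.5% were called in that comparison, 26.2% higher and 25.3% lower. Against CD43+ monocytes, 3 members were higher (S100a1, S100a6 and S100a9) and 3 lower (S100a4, S100a10 and S100a11), where 55.6% of all genes were called, 28.7% higher and 26.9% lower. Against DN blood cells, 2 were higher (S100a1 and S100a6) and 4 lower (S100a4, S100a9, S100a10 and S100a11), where 53.2% of all genes were called, 26.3% higher and 26.9% lower. About as many genes were called as not in these 3 comparisons, so a call alone does not set a member apart. The median log2 change of the 8 members was -0.95 against Ly6C+ monocytes, 0.48 against CD43+ monocytes and -2.10 against DN blood cells, with medians over all genes of 0.00, 0.02 and -0.03. The median against CD43+ monocytes lies between S100a13 (0.39) and S100a8 (0.58 ± 3.13). That against DN blood cells lies between S100a8 (-2.37 ± 1.62) and S100a11 (-1.82). Most S100a8 and S100a9 UMIs came from a few cells, described further on, and the S100a9 calls rest on them.

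Among blood populations, DN blood cells had 1 member higher than Ly6C+ monocytes (S100a9) and 3 lower (S100a1, S100a4 and S100a6), where 16.3% of all genes were called, 8.05% higher and 8.26% lower. Beside CD43+ monocytes, DN blood cells had 6 members higher (S100a1, S100a4, S100a6, S100a9, S100a10 and S100a11) and 0 lower, where 34.7% of all genes were called, 17.9% higher and 16.8% lower. CD43+ monocytes had 0 members higher than Ly6C+ monocytes and 5 lower (S100a1, S100a4, S100a6, S100a10 and S100a13), where 29.7% of all genes were called, 14.4% higher and 15.3% lower. Median log2 changes of the members in these 3 comparisons were -0.27, 1.29 and -2.001, with 0.02, 0.02 and 0.01 over all genes. All 8 members had a fitted change above 0 for DN blood cells and below 0 for CD43+ monocytes in the last 2 of these, so the counts of 0 are also 0 at an unadjusted p under 0.05 and with DESeq2. The plain log2 ratio of DN blood cells to CD43+ monocytes went below 0 for S100a8 in dataset 2 (-4.47, from 1 and 2 UMIs). It was also below 0 for S100a13 in dataset 1 (-0.096). For S100a9 in DN blood cells against Ly6C+ monocytes it was 5.47 in dataset 1 and -2.47 in dataset 2, the latter from 1 UMI in each population. The 6 comparisons share their samples, so their calls are not separate evidence. TMM scaling moved the median gene, relative to total UMI counts, by 0.29 log2 units for LysoDCs against CD43+ monocytes, by 0.23 for DN blood cells against CD43+ monocytes and by -0.21 for CD43+ against Ly6C+ monocytes.

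**Figure D2:**
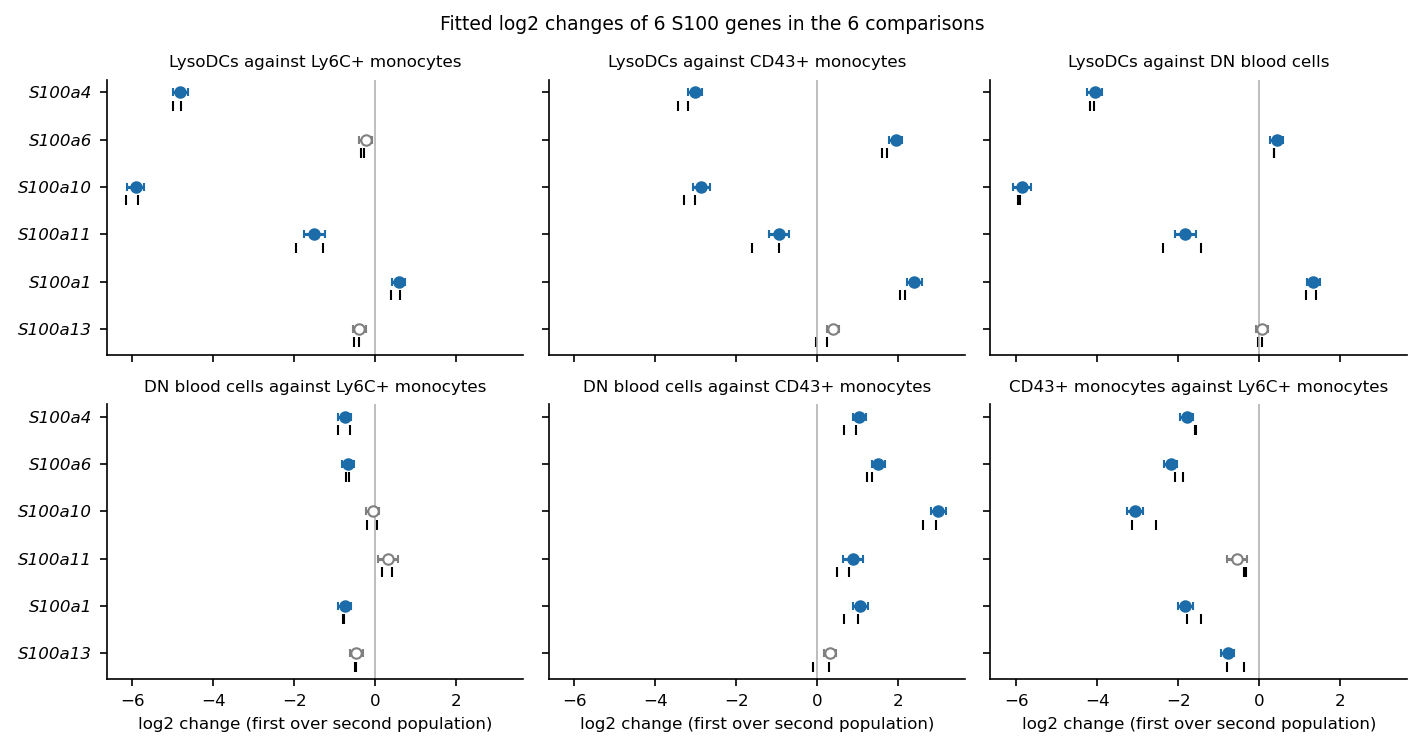
Fitted log2 change (first over second population, x axis) of 6 S100 genes in the 6 comparisons; circles with bars are the edgeR fit ± SE (n = 2 pools per population), filled where the adjusted p is under 0.05, and black ticks are the plain CPM ratios of the 2 datasets. S100a4 and S100a10 are lowest in LysoDCs, near -4.8 and -5.9 against Ly6C+ monocytes, and both datasets fall on the same side of 0 wherever a circle is filled.

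S100a4 (ENSMUSG00000001020), whose product regulates nonmuscle myosin and cell motility, stood at 91.9 and 124 CPM in LysoDCs (dataset 1, dataset 2). It stood at 1654 and 2106 CPM in DN blood cells, 847 and 1340.2 CPM in CD43+ monocytes, and 2547 and 3977 CPM in Ly6C+ monocytes. Both LysoDC pools were below every blood pool, and no ranges of the 4 populations overlapped. The log2 change of LysoDCs was -4.82 ± 0.19 against Ly6C+ monocytes (SE; adjusted p = 1.66e-08), -4.06 ± 0.18 against DN blood cells (adjusted p = 3.43e-08) and -3.03 ± 0.17 against CD43+ monocytes (adjusted p = 1.9e-07). Within blood it was -1.79 ± 0.16 for CD43+ against Ly6C+ monocytes (adjusted p = 3.05e-05) and 1.03 ± 0.16 for DN blood cells against CD43+ monocytes (adjusted p = 0.000622). For DN blood cells against Ly6C+ monocytes it was -0.75 ± 0.16 (adjusted p = 0.00954). The last call was lost without the dataset block (adjusted p = 0.175), without the DN blood cells of dataset 2 (0.0659) and without the Ly6C+ monocytes of dataset 2 (0.143).

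Per cell, 37.6% of LysoDCs in dataset 1 and 35.5% in dataset 2 had at least 1 UMI of S100a4, although they were sequenced more deeply than blood cells. Scaled to 1000 UMIs per cell, the expected share was 7.23% and 8.31% in LysoDCs. For DN blood cells it was 74.6% and 80.6%, for CD43+ monocytes 52.05% and 66.3%, and for Ly6C+ monocytes 88.8% and 95.9%. LysoDCs thus had the lowest share in both datasets, and the order of the other 3 populations was that of the CPM. No population here is known to lack S100a4, so no share serves as a background level for free RNA.

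S100a10 (ENSMUSG00000041959) encodes the annexin A2 partner that also binds plasminogen at the cell surface. Its level was 8.70 and 10.9 CPM in LysoDCs, against 519 and 679 CPM in DN blood cells, 85.4 and 88.6 CPM in CD43+ monocytes, and 501 and 785 CPM in Ly6C+ monocytes. LysoDC pools were lowest, CD43+ pools came next, and the ranges of DN blood cells and Ly6C+ monocytes overlapped. The log2 change of LysoDCs was -5.92 ± 0.22 against Ly6C+ monocytes (adjusted p = 1.5e-08), -5.85 ± 0.22 against DN blood cells (adjusted p = 1.18e-08) and -2.86 ± 0.20 against CD43+ monocytes (adjusted p = 9.06e-07). CD43+ monocytes were lower than Ly6C+ monocytes (log2 change -3.06 ± 0.19, adjusted p = 3.29e-06), and DN blood cells were higher than CD43+ monocytes (2.99 ± 0.19, adjusted p = 3.49e-06). DN blood cells against Ly6C+ monocytes gave -0.07 ± 0.17, which did not pass (adjusted p = 0.825).

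S100a11 (ENSMUSG00000027907), for the annexin A1 partner, was at 219 and 176 CPM in LysoDCs, 597 and 910.4 CPM in DN blood cells, 424 and 533 CPM in CD43+ monocytes, and 533 and 689 CPM in Ly6C+ monocytes. Both LysoDC pools were below all blood pools. Within blood, DN blood cells and Ly6C+ monocytes overlapped, and both CD43+ pools lay below the DN pools. LysoDCs were lower than DN blood cells (log2 change -1.82 ± 0.25, adjusted p = 0.000341) and lower than Ly6C+ monocytes (-1.50 ± 0.25, adjusted p = 0.00112). Against CD43+ monocytes the change was -0.95 ± 0.25 (adjusted p = 0.0111), a call lost without the CD43+ monocytes of dataset 1 (0.0688) or of dataset 2 (0.0755). DN blood cells were higher than CD43+ monocytes by 0.87 ± 0.25 (adjusted p = 0.0248). That call was lost without the CD43+ monocytes of dataset 1 (0.14) or dataset 2 (0.161), without the DN blood cells of dataset 2 (0.112), and with a hashtag call chosen after the data were seen, which adds 1 to each hashtag and its background before dividing (0.0634). CD43+ against Ly6C+ monocytes stood at -0.56 ± 0.25 (adjusted p = 0.125; 0.0113 without the filter on low counts) and DN blood cells against Ly6C+ monocytes at 0.32 ± 0.24 (adjusted p = 0.435).

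S100a6, which encodes calcyclin, a binder of the ubiquitin ligase component CacyBP, was at 2668 and 2877 CPM in LysoDCs and 2077 and 2214 CPM in DN blood cells. It was at 889 and 871 CPM in CD43+ monocytes and 3249.9 and 3679.9 CPM in Ly6C+ monocytes. CD43+ monocytes lay far below the other 3 populations, none of whose ranges overlapped. LysoDCs were higher than CD43+ monocytes by 1.94 ± 0.16 log2 units (adjusted p = 2.64e-06), and DN blood cells by 1.51 ± 0.16 (adjusted p = 5.3e-05). CD43+ monocytes were lower than Ly6C+ monocytes (-2.18 ± 0.16, adjusted p = 9.12e-06). LysoDCs against Ly6C+ monocytes gave -0.24 ± 0.15 (adjusted p = 0.208), which passed with total UMI counts in place of TMM scaling (0.0172).

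Smaller differences of S100a6 depended on single sums. LysoDCs were 0.43 ± 0.15 log2 units above DN blood cells (adjusted p = 0.0341), and the call was lost without the dataset block (0.0823), without the filter on low counts (0.0926) and without any of 5 sums, with adjusted p between 0.0622 and 0.17. These were the LysoDCs of dataset 1 and both sums of DN blood cells and of CD43+ monocytes. DN blood cells were lower than Ly6C+ monocytes (-0.67 ± 0.15, adjusted p = 0.0138), a call lost without the Ly6C+ monocytes of dataset 2 (0.183).

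S100a1, which in muscle encodes a regulator of calcium cycling, was at 80.2 and 69.3 CPM in LysoDCs, 30.5 and 31.1 CPM in DN blood cells, 19.3 and 15.4 CPM in CD43+ monocytes, and 52.7 and 53.3 CPM in Ly6C+ monocytes. The 4 populations did not overlap and kept the order LysoDCs, Ly6C+ monocytes, DN blood cells, CD43+ monocytes in both datasets. LysoDCs were higher than CD43+ monocytes by 2.40 ± 0.19 log2 units (adjusted p = 2.08e-06), than DN blood cells by 1.34 ± 0.16 (adjusted p = 3.54e-05) and than Ly6C+ monocytes by 0.58 ± 0.16 (adjusted p = 0.0107). The smallest of these calls was lost without the LysoDCs of dataset 1 (0.15) or without the Ly6C+ monocytes of dataset 1 (0.134). CD43+ monocytes were lower than Ly6C+ monocytes (-1.82 ± 0.19, adjusted p = 8.28e-05), and DN blood cells were higher than CD43+ monocytes (1.06 ± 0.19, adjusted p = 0.00169). DN blood cells were lower than Ly6C+ monocytes (-0.76 ± 0.16, adjusted p = 0.00993), a call lost without the Ly6C+ monocytes of dataset 2 (0.167).

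S100a13, whose product takes part in the unconventional release of FGF1 and IL-1α, varied least of the 6 well-counted members. It was at 165 and 162 CPM in LysoDCs, 159 and 166 CPM in DN blood cells, 169.5 and 136 CPM in CD43+ monocytes, and 219.5 and 235 CPM in Ly6C+ monocytes. Ly6C+ monocytes were above all other pools, which overlapped. Of its 6 comparisons 1 passed: CD43+ monocytes were lower than Ly6C+ monocytes (log2 change -0.78 ± 0.16, adjusted p = 0.00453). The call was lost without the CD43+ monocytes of dataset 2 (0.0952) or the Ly6C+ monocytes of dataset 2 (0.0537). LysoDCs against Ly6C+ monocytes stood at -0.40 ± 0.16 (adjusted p = 0.0526), LysoDCs against CD43+ monocytes at 0.39 ± 0.16 (adjusted p = 0.0586) and DN blood cells against Ly6C+ monocytes at -0.47 ± 0.15 (adjusted p = 0.0643). Each of these 3 passed under some other scaling or filter. DN blood cells against CD43+ monocytes gave 0.31 ± 0.16 (adjusted p = 0.153) and LysoDCs against DN blood cells 0.07 ± 0.15 (adjusted p = 0.718). For LysoDCs against CD43+ monocytes the plain CPM ratios of the datasets were -0.04 and 0.25 on the log2 scale, so the fitted sign rests in part on TMM scaling. S100a1 and S100a13 adjoin each other on the chromosome. Over the 13 sums of cells (9 populations of dataset 1 and 4 of dataset 2) the Pearson correlation of their log2 levels was 0.246.

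The LysoDC subsets, sorted to ask how these cells change from immature to mature, were measured once each, so their values carry counting intervals and no test. S100a11 stood at 81.5 CPM (95% Poisson interval 74.8 to 88.7) in follicular, 159 (151 to 168) in immature, 260.1 (252 to 268) in intermediate and 352 (337 to 366) in mature LysoDCs. The intervals of the 4 gates do not overlap, and mature cells stood at 2.21 times the immature level (2.07 to 2.36, exact interval for counting error). Scaled to 1000 UMIs, the expected share of cells with a UMI was 7.34%, 13.97%, 21.7% and 26.4%. The order of the 4 gates was the same under a second hashtag call, in which each hashtag is divided by its background, at 106, 168, 259 and 359 CPM.

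S100a4 stood at 44.7 CPM (39.7 to 50.0) in follicular, 81.4 (75.8 to 87.3) in immature, 89.6 (84.9 to 94.4) in intermediate and 163 (153 to 173) in mature LysoDCs. Mature cells stood at 2.01 times the immature level (1.83 to 2.20), while immature and intermediate cells overlapped. With the other hashtag call the levels were 99.8, 101, 99.8 and 187 CPM: the mature gate was still highest, and the lower follicular level was gone. S100a10 was low in all gates, at 7.04 (5.17 to 9.36), 7.73 (6.07 to 9.70), 7.39 (6.10 to 8.87) and 15.1 (12.2 to 18.4) CPM, against 16.7, 13.8, 11.7 and 18.6 CPM with the other call. Its mature excess of 1.95 times over immature cells (1.43 to 2.68) was 1.35 times with that call.

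**Figure D3:**
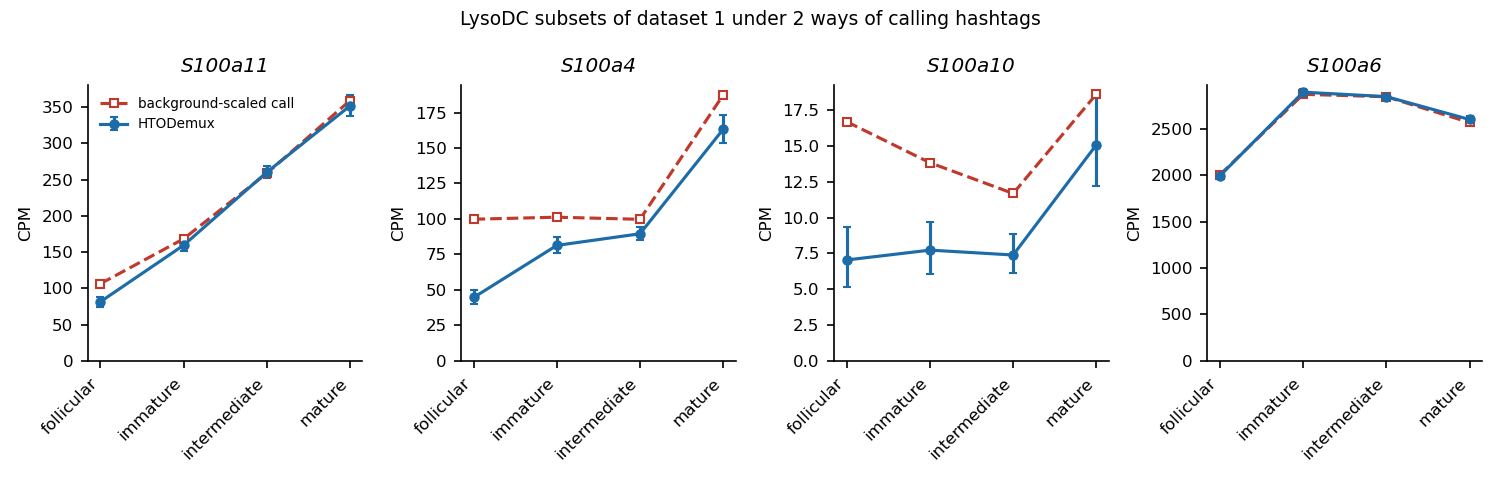
CPM of 4 S100 genes in the LysoDC gates of dataset 1 (x axis, follicular to mature); filled circles with exact 95% Poisson intervals are cells called by HTODemux and open squares are cells called after dividing each hashtag by its background. The S100a11 gradient from 81.5 to 352 CPM appears with both calls, while follicular S100a4 and S100a10 are higher with the second.

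S100a6 was lowest in follicular LysoDCs, at 1994 CPM (1960 to 2028), and stood at 2894 (2860 to 2928), 2846 (2820 to 2873) and 2599.8 (2560 to 2639.7) CPM in immature, intermediate and mature cells. S100a1 ranged from 76.4 to 82.7 CPM and S100a13 from 154 to 172 CPM over the 4 gates, and most of these intervals overlap. S100a11 stood higher in each gate than in the one before it, under both hashtag calls. S100a4 and S100a10 were highest in the mature gate under both, with no order of the other 3 gates that held in both. The plot of LysoDC gates under both hashtag calls shows this side by side.

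The cDC2s of the same patches had S100a4 at 1839 CPM in immature and 1415 CPM in maturing cells, against 81.4 CPM in immature and 163 CPM in mature LysoDCs. Immature cDC2s thus had 22.6 times the S100a4 level of immature LysoDCs (21.02 to 24.3, counting error only). For S100a11 the levels were 2037 and 1662 CPM in immature and maturing cDC2s, 12.8 times (12.1 to 13.5) the immature and 4.73 times (4.48 to 4.99) the mature LysoDC level. S100a11 was higher in both cDC2 gates than in any other population of dataset 1. S100a10 stood at 73.6 and 84.7 CPM in immature and maturing cDC2s, 9.52 times (7.46 to 12.3) the immature LysoDC level and near the 85.4 CPM of CD43+ monocytes. S100a1 was lower in cDC2s, at 44.9 and 42.6 CPM, which is 0.566 times (0.497 to 0.644) the immature LysoDC level for immature cells. S100a6 was at 3379 and 2697 CPM, 1.17 times (1.15 to 1.19) the immature LysoDC level in immature cDC2s. These cDC2s and the LysoDCs shared tissue, digestion and library, but each gate is 1 pool.

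Levels of S100a4 in LysoDCs were uneven between cells. In dataset 1, 78 of 2886 LysoDCs (2.70%, exact 95% interval 2.14 to 3.36) held 10 or more S100a4 UMIs, a threshold set after the data had been seen, and together they carried 38.1% of all S100a4 UMIs of LysoDCs. In dataset 2, 19 of 681 (2.79%, 1.69 to 4.32) did, with 46.4% of the UMIs. Their share was 0.621% of follicular, 2.26% of immature, 2.82% of intermediate and 5.97% of mature cells. In the remaining cells the S100a4 level was 35.0, 59.0, 62.6 and 75.1 CPM in the 4 gates, a smaller range. The cells left out were chosen on S100a4 itself. The immature and intermediate levels lay close together. As given above, the order of follicular, immature and intermediate cells did not hold with the other hashtag call.

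The cells with 10 or more S100a4 UMIs had the LysoDC transcripts at somewhat lower levels than other LysoDCs. C1qa was at 5774 CPM in them and 8884 CPM in the others of dataset 1, and at 5628 and 7909 CPM in dataset 2. Lyz1 was at 9275 and 12887 CPM in dataset 1, and at 8341 and 12235 CPM in dataset 2. Members not used to choose these cells also differed: in dataset 1 S100a10 was at 79.9 CPM in the high cells and 6.41 CPM in the others, and in dataset 2 at 169 and 3.43 CPM. S100a11 was at 629.97 and 206 CPM in dataset 1, and at 454 and 163 CPM in dataset 2. Dendritic cell genes stood higher in them too, with Flt3 at 27.8 against 1.0 CPM and Ccr7 at 25.2 against 1.22 CPM in dataset 1, counted from 33 and 30 UMIs in the high cells. In dataset 2 these genes had 1 and 2 UMIs in the high cells. Their median depth was 15337 against 13209 UMIs in dataset 1 and 17127 against 8938 UMIs in dataset 2. The part of undetected doublets within 1 hashtag was not tested.

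S100a8 and S100a9 transcripts were nearly absent, and most of what was counted sat in 7 cells. Dataset 1 held 341 S100a8 and 357 S100a9 UMIs in 7878 cells, and dataset 2 held 24 and 2 UMIs in 7470 cells. In dataset 1, 7 cells with 5 or more UMIs of both genes together carried 78.0% of the S100a8 and 94.96% of the S100a9 UMIs, and dataset 2 had 0 such cells. They were hashtagged as DN blood cells (3), mature LysoDCs (2) and maturing cDC2s (2). The richest, a DN blood cell with 1548 UMIs in all, held 128 S100a8 and 152 S100a9 UMIs. The next, a mature LysoDC with 2428 UMIs, held 28 and 119.

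Transcripts of other neutrophil genes were seen in these cells. Each of the 7 held between 1 and 26 UMIs of a list of 12 neutrophil genes, among them up to 19 of Retnlg and up to 4 of Cxcr2, while Ly6g, Camp, Ngp and Ltf had 0 UMIs in all 7. The same list summed to 37.9 to 51.5 CPM in LysoDCs, 46.1 and 7.99 CPM in DN blood cells, 83.8 and 85.1 CPM in CD43+ monocytes and 162 and 150.4 CPM in Ly6C+ monocytes. Camp, Ngp and Elane were at 0 in every population. Leaving out cells with a UMI of Ly6g, Camp, Ngp, Ltf or Mmp8, 5 of the 12 genes, changed no count of members called. Of the 7 cells 1 had such a UMI. The part of cells with transcripts of the other 7 genes was not tested.

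**Figure D4:**
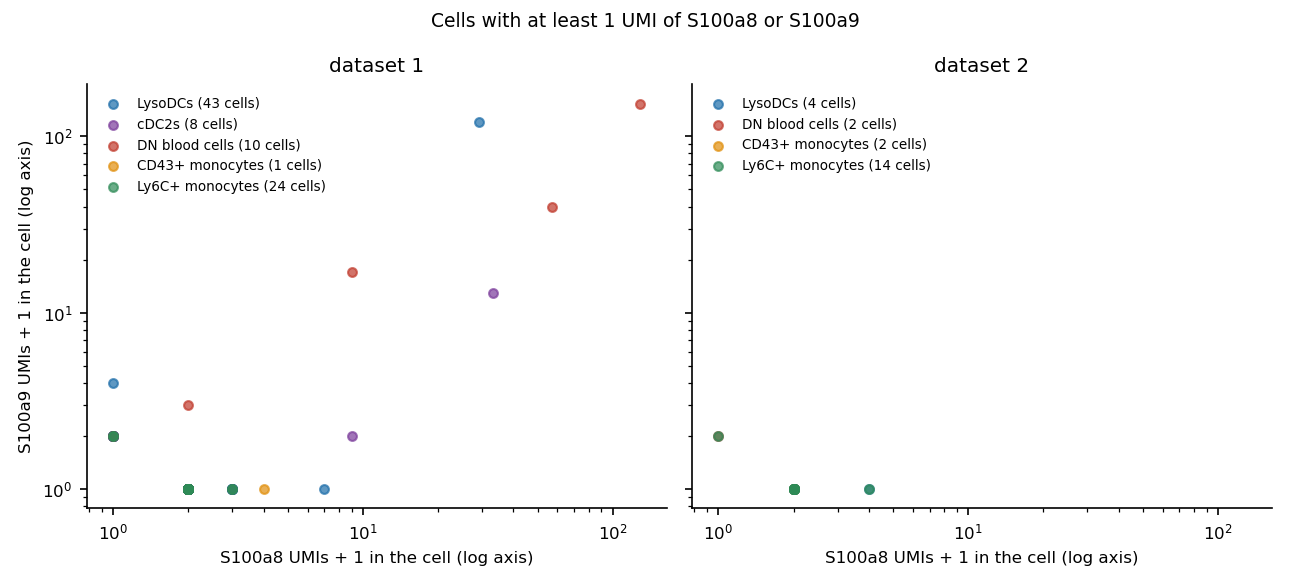
S100a9 against S100a8 UMIs per cell (both plus 1, log axes) for cells with at least 1 UMI of either gene, coloured by population; points at the same counts lie on top of each other. In dataset 1 a handful of DN blood cells, LysoDCs and cDC2s reach up to 128 S100a8 and 152 S100a9 UMIs, while cells of dataset 2 stay near the origin.

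Outside those 7 cells S100a8 was at 5.88 and 2.89 CPM in Ly6C+ monocytes, the highest of any population in either dataset, and at 0.622 and 0.0347 CPM in DN blood cells. The plot of both genes by cell shows that single UMIs make up these levels. S100a9 had 128 UMIs in LysoDCs and 210 in DN blood cells of dataset 1, against 0 in CD43+ monocytes, which is at least 2.78-fold and at least 18.0-fold higher (against a floor of 3 UMIs). In dataset 2 it had 0 UMIs in LysoDCs, 1 in DN blood cells, 0 in CD43+ monocytes and 1 in Ly6C+ monocytes. Its 4 calls in the tests (LysoDCs and DN blood cells higher than CD43+ monocytes, LysoDCs lower than DN blood cells, DN blood cells higher than Ly6C+ monocytes) therefore rest on dataset 1. All 4 were lost with DESeq2 in place of edgeR (adjusted p from 0.231 to 0.692) and without the dataset block (0.425 to 0.577). Without the 7 cells S100a9 no longer passed the filter on low counts and was not tested.

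S100a8 passed in 0 of the 6 comparisons in edgeR with all cells, in 0 at an unadjusted p under 0.05, and in 0 with DESeq2. With the stricter cell filter, edgeR called it higher in LysoDCs than in DN blood cells (log2 change 2.62, adjusted p = 0.00457). It was then also called lower in DN blood cells than in Ly6C+ monocytes (-4.08, adjusted p = 0.00141). Without the 7 cells it was lower in LysoDCs than in Ly6C+ monocytes (log2 change -2.25, adjusted p = 0.00468), lower in DN blood cells than in Ly6C+ monocytes (-4.18, adjusted p = 0.00213), lower in CD43+ than in Ly6C+ monocytes (-2.33, adjusted p = 0.04) and higher in LysoDCs than in DN blood cells (1.93, adjusted p = 0.04). These cells were chosen on the S100a8 and S100a9 counts themselves, after the data had been seen. With them left out, members called numbered 5, 5, 6, 4, 5 and 6 in the 6 comparisons, against 4, 6, 6, 4, 6 and 5 with all cells.

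Known partners of S100 proteins were followed as lists. Of 12 annexin genes 8 were tested, and against Ly6C+ monocytes 1 was higher and 4 lower in LysoDCs, with 4 higher and 2 lower against CD43+ monocytes and the same counts against DN blood cells. Over all genes 51.5%, 55.6% and 53.2% were called in these 3 comparisons: 26.2%, 28.7% and 26.3% higher and 25.3%, 26.9% and 26.9% lower. The called share of each list described here is to be read against that. Anxa2, for the S100A10 partner, was at 46.3 and 25.1 CPM in LysoDCs, 543 and 448 CPM in DN blood cells, 402 and 300.0 CPM in CD43+ monocytes, and 832 and 740.3 CPM in Ly6C+ monocytes. Both LysoDC pools were below all others, with a log2 change of -4.40 ± 0.24 against Ly6C+ monocytes (adjusted p = 2.91e-07). Ahnak, a large scaffold protein gene whose product binds S100A10 with annexin A2, was at 13.96 and 1.91 CPM in LysoDCs, against 1656 and 809 CPM in DN blood cells, 973 and 605 CPM in CD43+ monocytes and 2146 and 1205 CPM in Ly6C+ monocytes. Its log2 change against Ly6C+ monocytes was -7.67 ± 0.63 (adjusted p = 0.0006). Anxa1, for the S100A11 partner, was at 6.16 and 4.78 CPM in LysoDCs, against 145 and 289.9 CPM in Ly6C+ monocytes (-5.03 ± 0.37, adjusted p = 8.83e-05).

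**Figure D5:**
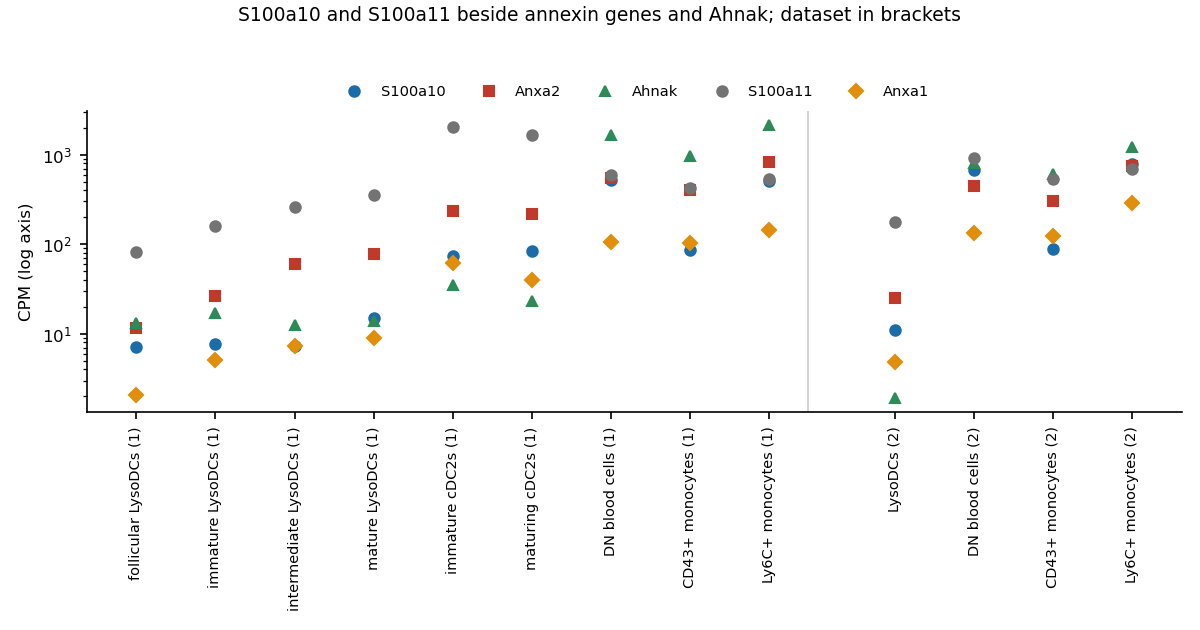
CPM (log axis) of S100a10 and S100a11 beside the annexin genes Anxa2 and Anxa1 and the scaffold gene Ahnak in each sorted population, dataset 1 on the left and dataset 2 on the right. Each gene is to be read across populations: all 5 are lowest in LysoDCs, while cDC2s have low Ahnak (34.9 and 23.5 CPM) beside high S100a11.

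The plot of partner genes shows where their levels part from those of the S100 genes. In cDC2s of dataset 1 Ahnak stood at 34.9 and 23.5 CPM in immature and maturing cells and Anxa2 at 235.5 and 215 CPM. In LysoDC gates Anxa2 stood at 11.5, 26.3, 60.2 and 78.7 CPM from follicular to mature cells, in the same order as S100a11. Anxa4 went the other way from Anxa1 and Anxa2 and was higher in LysoDCs than in all 3 blood populations, at 89.1 and 109 CPM, against 22.2 and 19.9 CPM in DN blood cells, 25.4 and 22.7 CPM in CD43+ monocytes and 45.3 and 46.4 CPM in Ly6C+ monocytes. Anxa3 was at 309.002 and 391 CPM in LysoDCs, against 41.1 and 13.5 CPM in DN blood cells (log2 change 3.89 ± 0.59, adjusted p = 0.0068).

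Of 11 partner and receptor genes 9 were tested, with 4 higher and 2 lower in LysoDCs than in Ly6C+ monocytes, 4 and 3 against CD43+ monocytes and 4 and 1 against DN blood cells, where 51.5%, 55.6% and 53.2% of all genes were called. Bsg, which encodes basigin, a receptor that S100A9 binds in human cells, was at 404 and 345 CPM in LysoDCs, against 145 and 120.5 CPM in DN blood cells, 157 and 120.5 CPM in CD43+ monocytes and 158 and 135 CPM in Ly6C+ monocytes. LysoDC pools were above all others, by 1.43 ± 0.14 log2 units over Ly6C+ monocytes (adjusted p = 9.99e-06). Il1a, for a cytokine whose release involves S100A13, was at 27.6 and 31.4 CPM in LysoDCs, against 1.87 and 0.347 CPM in DN blood cells, 2.01 and 1.16 CPM in CD43+ monocytes, and 1.47 and 0 CPM in Ly6C+ monocytes. Cd36 encodes a scavenger receptor that also takes up fatty acids. Its level in CD43+ monocytes was 174 and 137 CPM, and in Ly6C+ monocytes it was 5.63 and 9.04 CPM (log2 change 4.12 ± 0.79, adjusted p = 0.029). Tlr4, a receptor for S100A8 and S100A9, did not exceed 13.9 CPM in any population.

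Among 10 other S100 genes 9 were in the matrices and 1, S100a5, had enough counts to be tested. It was at 4.77 and 4.504 CPM in LysoDCs, against 0.933 and 0.521 CPM in DN blood cells, 0.805 and 0 CPM in CD43+ monocytes and 0.245 and 0.577 CPM in Ly6C+ monocytes. LysoDC pools were above all blood pools, with a log2 change of 2.80 ± 0.42 against DN blood cells (adjusted p = 0.000209), and cDC2s of dataset 1 stood at 10.3 and 9.79 CPM. Of 27 other EF-hand genes, all tested, 10 were higher and 3 lower in LysoDCs than in Ly6C+ monocytes, 10 and 6 against CD43+ monocytes and 14 and 2 against DN blood cells. In total that is near the share over all genes (51.5%, 55.6% and 53.2% called), but the split by direction was less even. Over all genes 26.2%, 28.7% and 26.3% were higher and 25.3%, 26.9% and 26.9% lower. In this list more genes were higher than lower in these 3 comparisons, which share the same LysoDC sums. Between blood populations 0 were higher and 4 lower in DN blood cells than in Ly6C+ monocytes. The counts were 3 and 6 for DN blood cells against CD43+ monocytes, and 4 and 4 for CD43+ against Ly6C+ monocytes. Over all genes 16.3%, 34.7% and 29.7% were called in these blood comparisons. Ehd1 and Ehd4, which encode related regulators of endocytic recycling, moved apart. Ehd1 was at 576 and 475 CPM in LysoDCs, against 95.8 and 63.3 CPM in Ly6C+ monocytes (log2 change 2.83, adjusted p = 3.59e-06). Ehd4 was at 16.8 and 14.6 CPM in LysoDCs, against 259 and 183 CPM in Ly6C+ monocytes (-3.72, adjusted p = 1.66e-08).

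Within DN blood cells, levels were set beside each other by the dendritic cell gene Cd209a. In dataset 1 S100a10 was at 639.8 CPM (621 to 659.5) in the 1331 cells with a Cd209a UMI and at 267 CPM (249.5 to 286) in the 787 without. In dataset 2 it was at 702 CPM (692 to 713) in 3889 cells with a UMI and at 541 CPM (519 to 563) in 1082 without. S100a11 was at 699 and 383 CPM with and without a Cd209a UMI in dataset 1, but at 905 and 944 CPM in dataset 2, so that difference was seen in dataset 1 alone. Cells with a Cd209a UMI were deeper, with medians of 4769 against 3830 UMIs in dataset 1 and 6725 against 3403.5 UMIs in dataset 2. In LysoDCs with a UMI of the proliferation genes Mki67 or Top2a, S100a10 was at 6.04 CPM, against 12.7 CPM in those without, in dataset 1. In dataset 2 it was at 12.9 CPM in cells with and 8.77 CPM in cells without such a UMI, so the sign differed between datasets.

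Over the 13 sums, the log2 levels of S100a4 and S100a10 had a Pearson correlation of 0.937, S100a4 and S100a11 of 0.842, and S100a1 and S100a6 of 0.771. These sums share libraries and mice, and the values are descriptions. Among 4183 genes with at least 50 CPM in some sum, mitochondrial and ribosomal protein genes and unnamed loci left out, the nearest to S100a10 were Lgals1 (0.984), which encodes galectin-1, Atf3 (0.980) and Ms4a4c (0.980). Nearest to S100a4 were Dna2, Eif3h and Ccdc28b (0.980, 0.980 and 0.978), to S100a11 Ift57, Ppp2ca and Arf6 (0.974, 0.958 and 0.950), and to S100a1 Pira2, Cib2 and Lgals9 (0.9903, 0.989 and 0.979). S100a6 lay closest to Cox5b, Fgl2 and Glrx5 (0.938, 0.937 and 0.934), and S100a13 to Snx2, Erp44 and Slfn1 (0.932, 0.926 and 0.922).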

How the data were processed

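The deposited values are raw counts of UMIs for each gene and hashtag in each barcode, and per the file headers Cell Ranger 6.0.1 wrote them. The submitters' processing notes name Cell Ranger 2.0.0 and mm10. No column of per-sample values was left unused. The members and gene lists were chosen with earlier results of these data known.

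HTODemux in Seurat 5.3.0 called the hashtags at a quantile of 0.99. From 11878 and 13111 barcodes it left 7878 and 7470 cells with 1 hashtag, at least 1000 UMIs, at least 500 genes and at most 10% mitochondrial UMIs. Barcodes with several hashtags were removed as doublets. The hashtag list of 1 library of dataset 2 names immature LysoDCs and its title mature ones, and the title was followed. The labels do not assign the LysoDC hashtags of dataset 2 to subsets, so those cells were summed.

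Raw counts were summed per population and dataset and tested in edgeR 4.0.16 (R 4.3.3): TMM scaling, filterByExpr, robust quasi-likelihood fits over all 8 sums, two-sided, Benjamini-Hochberg adjusted over 11474 genes. Dataset was a block, because the labels give each dataset its own mice, tagging step and libraries, so that sums of the same number share a batch. The fit had 3 residual and 7.73 prior degrees of freedom. With dataset as a block, p-values measure how far differences between populations vary from 1 dataset to the other. That spread is estimated over all 8 sums and moderated by the spread of other genes. The SE is approximate, taken from the fitted change and its F statistic. On simulated counts the test found 47% to 84% of changes of 2-fold and 93% to 99% of those of 4-fold over the 6 comparisons, with 6 to 9 false calls among 11474 genes. The simulation gave all genes the same spread (biological coefficient of variation 0.138) and had no dataset effect. A small set of well-counted genes was changed, and all others had equal levels in every population. These rates therefore do not carry over to genes with a wider spread or few counts, such as S100a8 and S100a9. Poisson, Clopper-Pearson and ratio intervals (95%) cover counting error only. Expected shares at 1000 UMIs come from drawing that number of UMIs from each cell without replacement. All 8 members are named. From related lists up to 4 genes per comparison with the smallest adjusted p were eligible, and other genes named from them (Tlr4, values of gates, cells of 1 kind) were chosen after their values were seen. Alternatives were another scaling, no low-count filter, DESeq2 1.42.0, no dataset block, stricter cells, another hashtag call, leaving out cells with a UMI of Ly6g, Camp, Ngp, Ltf or Mmp8, and leaving out each sum. Chosen after seeing the data were total UMI counts as scaling, a hashtag call with 1 added, and leaving out 7 cells high in S100a8 and S100a9.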

Additional observations from a re-analysis of the deposited data

Results flagged for a closer look

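For 2 members the step between maturation gates of dataset 1 went in opposite directions in LysoDCs and in cDC2s, in data with 1 sum per gate. S100a4 in mature LysoDCs stood at 2.01 times the immature level (1.83 to 2.20), while in maturing cDC2s it stood at 0.770 times the immature level (0.739 to 0.801). Most of the S100a4 UMIs of mature LysoDCs (56.6%) came from 28 of 469 cells with 10 or more S100a4 UMIs. Without such cells S100a4 was at 75.1 CPM in mature and 59.0 CPM in immature LysoDCs, a smaller step. S100a11 stood at 2.21 times (2.07 to 2.36) in LysoDCs and at 0.816 times (0.786 to 0.847) in cDC2s. The intervals cover counting error only, and the difference between the LysoDC and cDC2 steps was not tested. With the other hashtag call the ratios were 1.85 and 0.736 for S100a4, and 2.13 and 0.788 for S100a11. The cDC2 gate is named maturing and the LysoDC gate mature, so the steps need not be the same interval. The 7 LysoDC markers summed to 10470.5 CPM in immature and 15675 CPM in maturing cDC2s. The part of LysoDC cells or RNA in the cDC2 steps was not tested.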

How the results depend on the processing

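Of 27 calls of the 6 well-counted members, 19 kept their direction and their side of the threshold in every alternative run, and 8 were lost in at least 1, as given beside them. Of their 9 results that did not pass, 2 kept direction and side throughout, 2 changed sign without passing, and 5 passed in at least 1 alternative. Without the replicate block, DN blood cells against Ly6C+ monocytes had 1082 genes and 2 members called, against 1872 and 4 with it. The calls of S100a4 there and of S100a6 for LysoDCs against DN blood cells were among those lost. Leaving out 1 sum at a time gave 383 to 2328 genes for DN blood cells against Ly6C+ monocytes, with 1 to 4 members. It gave 1777 to 3986 genes for DN blood cells against CD43+ monocytes, 1433 to 3747 for CD43+ against Ly6C+ monocytes, and 3 to 7 members for LysoDCs against Ly6C+ monocytes. The lowest counts came without the Ly6C+ monocytes of dataset 2 for DN blood cells against Ly6C+ monocytes (genes and members), and without the CD43+ monocytes of dataset 2 for the other 2 gene counts. The 7 members came without either sum of DN blood cells. A left-out sum leaves its population with 1 sum, assumed to vary like the others. With the background-scaled hashtag call, the most highly expressing population of dataset 1 was the same for 5 of the 8 members.

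S100a8 changed sign in LysoDCs against DN blood cells with the stricter cell filter (2.62) and without the 7 cells (1.93), in DN blood cells against Ly6C+ monocytes with the added hashtag call (-0.79), the stricter filter (-4.08) and without the 7 cells (-4.18), and in DN blood cells against CD43+ monocytes (-1.95 and -1.86). With the stricter filter S100a8 passed in edgeR for LysoDCs against DN blood cells and for DN blood cells against Ly6C+ monocytes. It did not pass for DN blood cells against CD43+ monocytes (adjusted p = 0.166). The 7 cells account for the change of sign where they were left out. The stricter filter asks for at least 2000 UMIs, and the 3 DN blood cells among the 7 had 1548, 1375 and 1062, so it left them out too. The part of other cells removed by that filter was not tested, nor was the cause under the added hashtag call. Without 1 sum at a time, S100a8 ran from -5.58 to 0.46 (LysoDCs against Ly6C+ monocytes), -1.95 to 3.18 (LysoDCs against CD43+ monocytes), -3.30 to 4.40 (LysoDCs against DN blood cells), -5.94 to 1.78 (DN blood cells against Ly6C+ monocytes) and -3.61 to 4.10 (DN blood cells against CD43+ monocytes). S100a9 ran from -4.68 to 2.93 (LysoDCs against Ly6C+ monocytes), -2.68 to 1.62 (LysoDCs against DN blood cells), -2.15 to 5.47 (DN blood cells against Ly6C+ monocytes) and -12.2 to 1.64 (CD43+ against Ly6C+ monocytes). S100a13 for LysoDCs against DN blood cells ran from -0.043 to 0.18, and S100a10 for DN blood cells against Ly6C+ monocytes from -0.31 to 0.18. The planned background-scaled hashtag call was not run for the tests, because 2 hashtags of dataset 2 have a median of 0.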

Other observations

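Barcodes left out of all comparisons (4000 in dataset 1 and 5641 in dataset 2: several hashtags, none, or below the cell filters) also carried the 8 genes. In dataset 1 S100a4 was at 655 CPM in barcodes left out and 764 CPM in cells used, and in dataset 2 at 381 and 1952 CPM. S100a10 was at 142 and 130.1 CPM in dataset 1, and at 97.4 and 545 CPM in dataset 2. S100a8 and S100a9 had 44 UMIs each in the barcodes left out of dataset 1, where 3 barcodes held 5 or more, and 18 and 1 UMIs in those of dataset 2.

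Across the LysoDC hashtags of dataset 2, which cannot be assigned to subsets, S100a4 was at 168, 102 and 98.97 CPM in hashtags with 213, 321 and 143 cells, and S100a11 at 196, 183 and 130.0 CPM. The remaining hashtag gave 4 cells.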
